A study of Ovis aries with 16 samples.

Results

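The effect of prenatal exposure to bisphenol A (BPA) on the heart muscle of overfed sheep was examined as 8 of the 16 mRNA libraries of the study, 4 labelled ObBPA and 4 labelled obese. All 8 animals were female, were overfed and were 21 months old when myocardium was taken, and each library came from a separate animal. The mothers of the ObBPA animals had received BPA in daily subcutaneous injections of 0.5 mg/kg between days 30 and 90 of gestation, with corn oil as vehicle, and the mothers of the obese animals had received the vehicle alone. Overfeeding began at 14 weeks of age with 1.7 lb of corn and 1.6 lb of hay a day per lamb and later became unrestricted. Before death all animals were given 20 mg of prostaglandin F2α 11 days apart, so both groups also share this hormonal synchronisation. The other 8 libraries, from control-fed animals with (BPA) and without (control) prenatal BPA, were left out of the fit of the comparison. They are used for levels, for an alternative fit of all 16 libraries, for the interaction of BPA with diet and for a count under the control diet. Libraries of each group are numbered 0 to 3.

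BPA binds oestrogen receptors weakly and crosses the placenta. Heart muscle is mostly cardiomyocytes by volume, with endothelial cells, fibroblasts, smooth muscle and blood cells beside them, and it draws most of its energy from fatty acids. Overfeeding changes the supply of fuels to the heart, so overfed animals offer a setting in which a lasting effect of an early exposure might be seen under metabolic load. In such whole tissue, fewer cells of a type and less RNA per cell cannot be told apart.

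The table gave features by Ensembl sheep gene ID and did not pair them with gene names. None of the IDs (0 of 27054) was found in the gene table used here, so features are named by ID, gene lists were not counted, and cardiomyocyte markers could not be looked up to check the tissue. Values were FPKM, a measure of abundance in which the fragments of a feature are divided by its transcript length and by all fragments mapped in the library. Tested were the 12734 of 27054 features (47.1%) that reached 1 FPKM in 4 or more of the 8 libraries.

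The libraries numbered 0 stood apart in both groups. They differed from the other 6 libraries in 1762 of the 12734 features tested at an adjusted p under 0.05 by limma, 203 higher and 1559 lower. The log2 difference over all features had a median of -0.135. On the first principal component, which held 23.3% of the variance, obese library 0 lay at -54.1 and ObBPA library 0 at -15.8, against -5.31 to 21.3 in the other 6. On the second, which held 17.7%, ObBPA library 0 lay at 46.4, against -15.8 to 18.9 in the other 6. Obese library 0 lay within that range, at -13.6, so these 2 libraries did not stand apart along the same axis alone. The prenatal treatments did not separate on the first pair of components. Correlations of log2(FPKM + 1) had a median of 0.946 between obese libraries, 0.954 between ObBPA libraries and 0.952 between libraries of different groups. Each group holds 1 library numbered 0. The calls, the count at an unadjusted p under 0.05, the counts of large differences and of groups that did not overlap, and the median difference are also given without both.

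**Figure D1:**
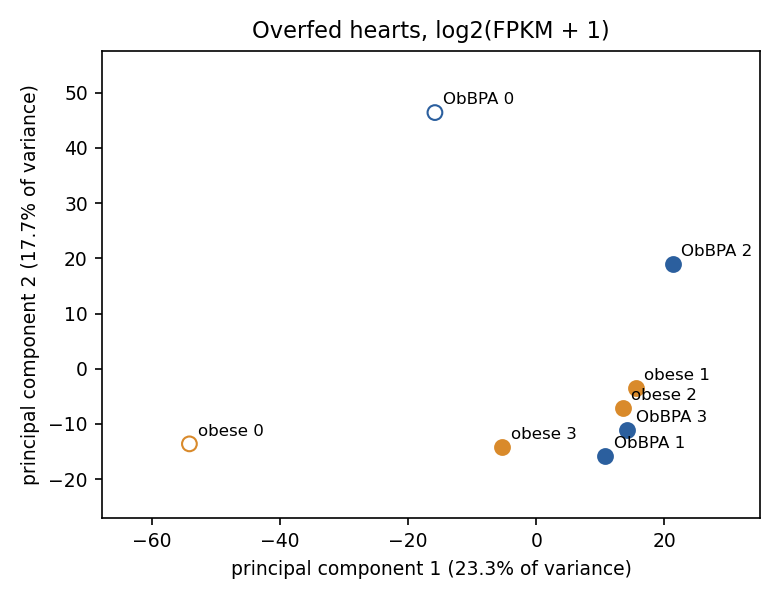
Principal components 1 and 2 of log2(FPKM + 1) in the 12734 features tested, 1 point per library, with the share of variance on each axis. Orange points are obese and blue points ObBPA libraries, and open circles mark the libraries numbered 0. These lie at -54.1 (obese) and -15.8 (ObBPA) on the first component, and at -13.6 (obese) and 46.4 (ObBPA) on the second.

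Whole-library measures were compared by exact two-sided permutation tests of 4 against 4 libraries, for which the smallest p is 0.0286, and no difference passed. The number of features at 1 FPKM or more was 12643 ± 105 (obese) and 12682 ± 128 (ObBPA; SD, n = 4; exact permutation p = 0.743). The most abundant feature took 37.6% ± 6.52 (obese) and 34.8% ± 4.15 (ObBPA) of the summed FPKM (SD, n = 4; exact permutation p = 0.457). The share of the 10 most abundant features was 65.9% ± 4.49 and 65.6% ± 3.65 (SD, n = 4; exact permutation p = 0.943). Over these 3 measures and the summed FPKM the adjusted p was 0.943 for each. The median log2 difference of all features tested, ObBPA minus obese, was 0.013. It was 0.00602 without both libraries numbered 0, 0.00124 with median-of-ratios scaling, 0.0439 without ObBPA library 0, and turned to -0.0227 without obese library 0.

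Between obese and ObBPA hearts, limma gave 2 features an adjusted p under 0.05, which is 0.0157% of the 12734 tested, both higher in ObBPA and 0 lower. Both had passed the filter on low values through the 4 ObBPA libraries alone, so among features tested their groups had to differ, and their values are given as a description. With no filter beyond a value above 0 in at least 1 library, the adjusted p by limma was 0.00478 for ENSOARG00000025092 and 0.15 for ENSOARG00000022632. ENSOARG00000025092 reached 10.1, 23.4, 18.2 and 23.5 FPKM in ObBPA libraries 0 to 3, while each obese library had a listed value of 0. Every ObBPA library was thus above every obese library, and the mean was 18.8 ± 6.34 in ObBPA hearts (SD, n = 4). Its difference on the log2(FPKM + 1) scale was 4.24 ± 0.237 (SE), at an adjusted p of 0.000786 by limma. ENSOARG00000022632, also at 0 throughout the obese group, reached 6.0, 11.4, 20.0 and 5.74 FPKM in the ObBPA libraries. Its difference was 3.40 ± 0.335 (SE), and limma gave an adjusted p of 0.0369. Against a group listed at 0 these differences depend on the pseudocount of 1 and are no measure of fold change.

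Without both libraries numbered 0, ENSOARG00000025092 had an adjusted p of 0.000194 by limma and ENSOARG00000022632 one of 0.338. The obese values stay at 0 in any such refit, so these results too are a description. ENSOARG00000022632 was called without ObBPA library 2 or ObBPA library 3 and lost its call without any other single library, with adjusted p by limma up to 0.217. Fitted together with the control and BPA libraries, which share in the estimate of the spread, their adjusted p by limma was 0.789 and 1.

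The features with the smallest p among those lower in ObBPA hearts did not pass the test. In ENSOARG00000012112 the obese libraries showed 8.78, 8.45, 7.83 and 8.02 FPKM, against 3.38, 4.25, 3.72 and 4.81 FPKM in the ObBPA libraries. The obese libraries lay close together and above every ObBPA library. Means were 8.27 ± 0.430 FPKM (obese) and 4.04 ± 0.626 FPKM (ObBPA; SD, n = 4), and the difference of -0.89 ± 0.0984 (SE) on the log2 scale had an adjusted p of 0.061 by limma. It was called under 4 of 22 alternatives (quantile normalization, robust prior variance, library weights, and without ObBPA library 3), over which its adjusted p by limma ranged from 0.0181 to 1. ENSOARG00000024106 showed 17.7, 9.47, 3.35 and 4.86 FPKM in obese libraries 0 to 3 against a listed 0 in every ObBPA library. Its adjusted p was 0.151 by limma. It had passed the filter on low values through the 4 obese libraries alone. Among features tested its groups thus had to differ, and its values are given as a description. With no filter beyond a value above 0 in at least 1 library, its adjusted p by limma was 0.512. Without both libraries numbered 0 the adjusted p by limma was 0.338 for each of these lower features.

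Levels in the control-fed animals set these 4 features in context. ENSOARG00000025092 stood at 9.66, 31.4, 9.38 and 8.46 FPKM in control libraries 0 to 3, and at 36.5, 0, 13 and 14.5 FPKM in BPA libraries 0 to 3. For this feature it was thus the obese group, and not ObBPA, that lay outside the range of the control libraries. ENSOARG00000022632 was listed at 0 in control libraries 0 and 3, with 34.5 and 6.86 in the others, and in 3 of the 4 BPA libraries, with 7.73 in BPA library 1. ENSOARG00000012112 averaged 3.70 ± 2.59 FPKM in control and 3.80 ± 0.963 FPKM in BPA hearts (SD, n = 4), and its highest value in either group, 7.48 in control library 3, lay below every obese library. In each of the 4 features the level with prenatal BPA and overfeeding therefore overlapped the range of the control libraries. Whether the effect of BPA differed between the diets was tested as an interaction over all 16 libraries. The adjusted p by limma was 0.998 for each of the 4 features. On the log2 scale the interaction was 4.76 ± 1.12 for ENSOARG00000025092, 4.65 ± 1.38 for ENSOARG00000022632, -1.03 ± 0.362 for ENSOARG00000012112 and -2.90 ± 0.987 for ENSOARG00000024106 (SE). The adjusted p thus does not show equal effects. The features were chosen by the ObBPA and obese difference, which is part of the interaction. For features listed at 0 throughout a group, the interaction also depends on the pseudocount of 1.

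**Figure D2:**
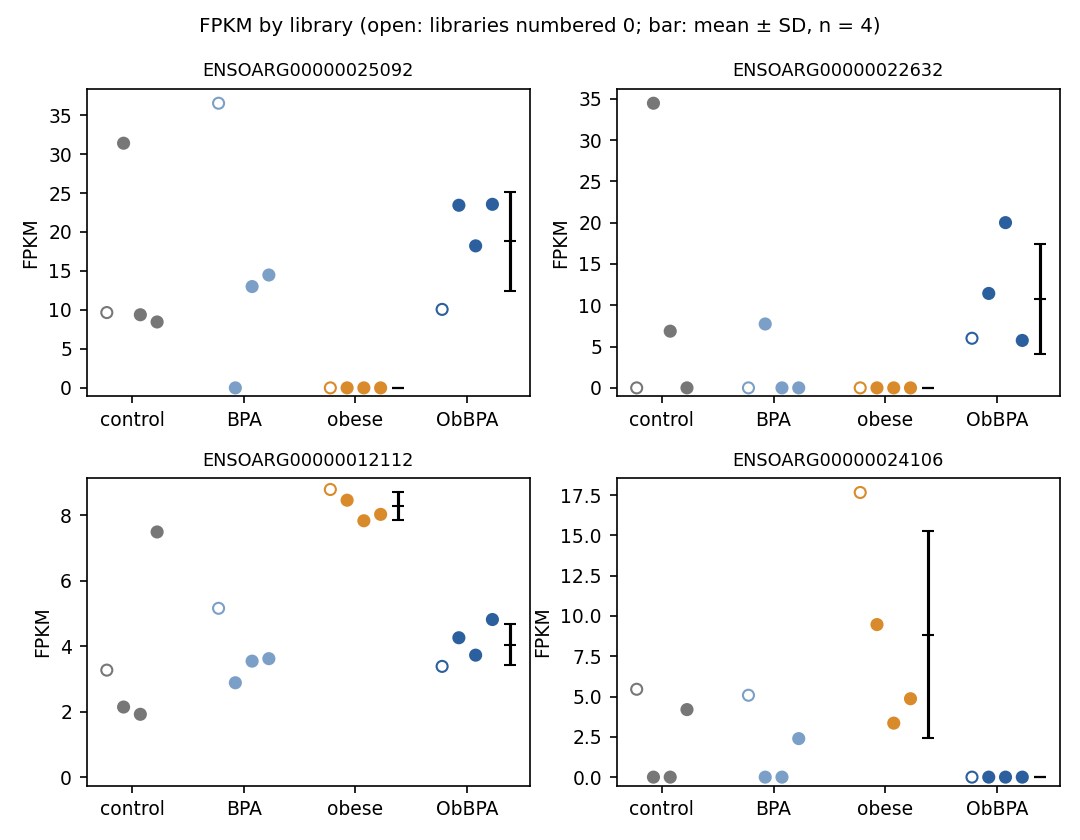
FPKM of 4 features, those of smallest p among the higher (upper panels) and the lower (lower panels), by group, with 1 point per library, open circles for libraries numbered 0, and bars for the mean ± SD of the obese and ObBPA groups (n = 4). The obese libraries are all listed at 0 in the upper panels, lie between 7.83 and 8.78 for ENSOARG00000012112, and are all above the ObBPA libraries for ENSOARG00000024106.

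How many fragments stand behind such values was read from the table itself. In a feature of few fragments, FPKM can take only whole multiples of the value of 1 fragment, called a step here, and that value depends on the library's depth and, for the same depth, is larger the shorter the transcript. Unless further scaling was applied, the most frequent ratio of low values between libraries gave the relative depth of libraries numbered 1 to 3. Against obese library 2 it was 0.708 in obese library 1, 0.689 in obese library 3, and 0.866, 0.742 and 0.861 in ObBPA libraries 1 to 3. The libraries numbered 0 shared no such ratio with obese library 2: at most 1.38% of low features lay at the most frequent ratio in the overfed libraries numbered 0, against 13.9% to 15.5% for the other overfed libraries. The absolute depth is unknown, and a step is 1 fragment only where each fragment was counted whole.

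Both called features rested on 1 to 3 steps per library. ENSOARG00000025092 held 3, 2 and 3 steps in ObBPA libraries 1 to 3, 0 in the obese libraries, 2, 1 and 1 in control libraries 1 to 3 and 0, 1 and 3 in BPA libraries 1 to 3. ENSOARG00000022632 held 2, 3 and 1 steps in ObBPA libraries 1 to 3 and 0 in the obese libraries. Over ObBPA libraries 1 to 3 these were 8 and 6 steps in all, against 0 in the obese libraries. ENSOARG00000024106 held 2, 1 and 1 steps in obese libraries 1 to 3 and 0 in the ObBPA libraries. ENSOARG00000012112 was no such feature: its values did not fall on up to 10 steps.

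Leaving out the libraries numbered 0 added 1 call of the same kind, named here after its values were seen. ENSOARG00000023506 stood at 200.2, 188.9 and 205.7 FPKM in obese libraries 1 to 3 and at 54.6, 63.7 and 54.8 in ObBPA libraries 1 to 3, a log2 difference of -1.77 ± 0.0832 (SE), at an adjusted p of 0.00443 by limma. These values were 3, 4 and 3 steps against 1, 1 and 1. Obese library 0 was listed at 0 and ObBPA library 0 had 85.5, and with them the log2 difference turned to 0.28, with an adjusted p of 1.00 by limma. In the obese group, 10 steps over 3 libraries thus stood behind FPKM values of 188.9 to 205.7.

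**Figure D3:**
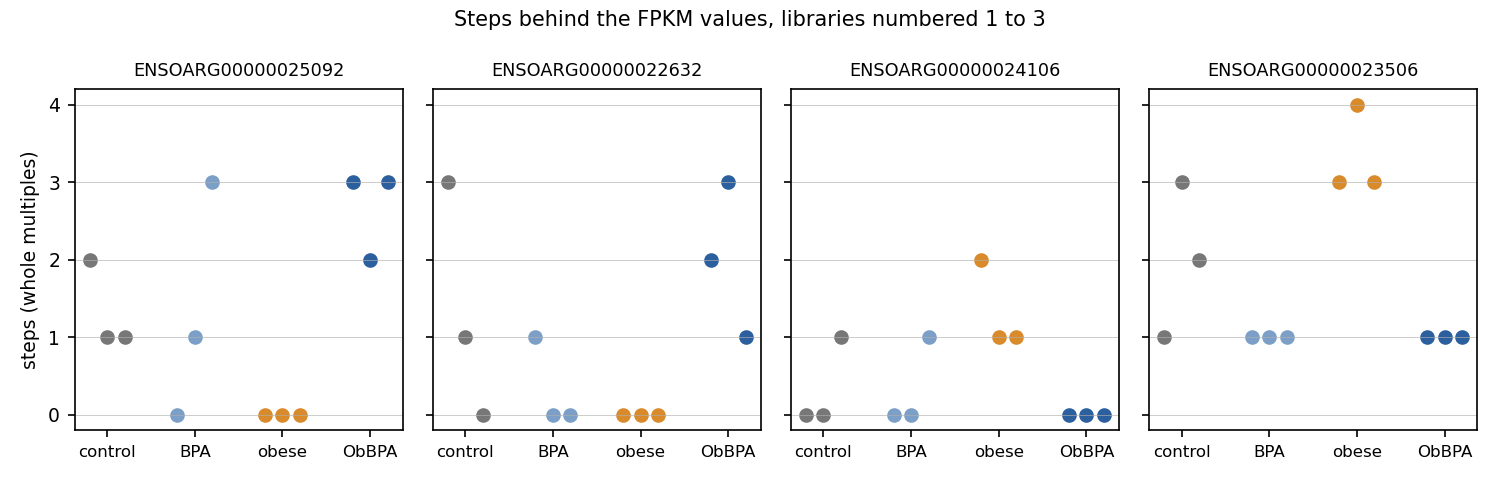
Steps behind the FPKM values of 4 features in the 12 libraries numbered 1 to 3, by group, 1 point per library; a step is the common value of which all of a feature's values are whole multiples, after allowing for depth. ENSOARG00000025092 holds 2 or 3 steps in the ObBPA and 0 in the obese libraries, and ENSOARG00000023506 holds 1 step in each ObBPA and 3 or 4 in the obese libraries.

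Features of this kind held most of the large differences. Among those tested, 266 (2.09%) had values that were whole multiples of 1 to 5 steps in the 6 overfed libraries numbered 1 to 3. Their median FPKM was 17.9, above the 9.10 of the other 12468 features, and 50 of them had a mean FPKM of at least 100. A log2 difference of at least 1 in either direction was found in 179 features (1.41% of those tested), 101 higher and 78 lower, and 129 of these were features of 1 to 5 steps. In libraries 1 to 3 alone there were 175, 92 higher and 83 lower, and 121 of them were features of 1 to 5 steps. The share past this size was 48.5% among the 266 and 0.401% among the rest. For the other 12468 features, the middle 95% of log2 differences lay between -0.286 and 0.358. Without the 266, limma called 0 features of 12468, with 444 at an unadjusted p under 0.05.

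**Figure D4:**
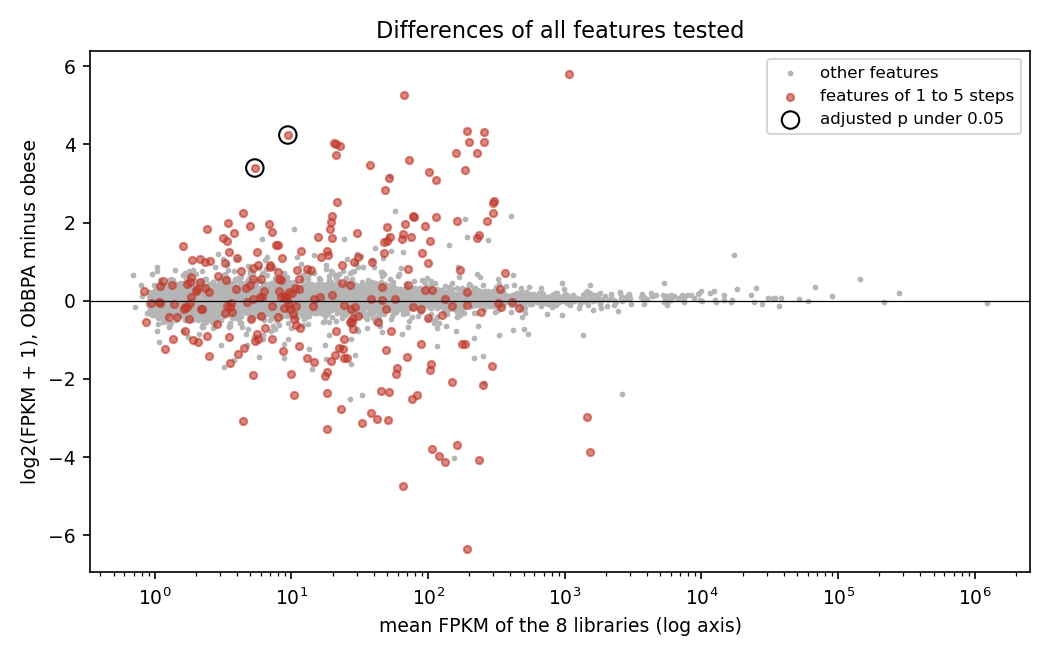
Difference in log2(FPKM + 1), ObBPA minus obese, against mean FPKM of the 8 libraries on a log axis, 1 point per feature tested. Red points are the 266 features whose values are whole multiples of 1 to 5 steps, which hold 129 of the 179 differences of at least 1 in either direction; circles mark the 2 features with an adjusted p under 0.05.

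Values of 0 came and went within groups as well. In the obese group 424 of 6795 features (6.24%) that reached an FPKM of 10 in 1 library were listed at 0 in another, and in the ObBPA group 382 of 6840 (5.58%) were. In the whole table, 471 features were listed at 0 in exactly 4 of the 8 libraries. Of these, 3 had all their zeros in the obese and 4 in the ObBPA group, and 3 of these 7 passed the filter: ENSOARG00000025092, ENSOARG00000022632 and ENSOARG00000024106. Some listed zeros may be estimates that failed.

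Among features with more fragments behind them, those higher in ObBPA with the smallest p were ENSOARG00000001688 and ENSOARG00000004257, chosen here after their values were seen. ENSOARG00000001688 reached 60.7, 60.0, 55.4 and 35.1 FPKM in the ObBPA libraries, against 22.1, 26.2, 26.2 and 24.6 FPKM in the obese libraries. ENSOARG00000004257 reached 59.7, 67.5, 63.3 and 47.2 FPKM with BPA, against 35.6, 34.0, 39.6 and 36.3 FPKM without it, a log2 difference of 0.68 ± 0.116 (SE). In both features the groups did not overlap and ObBPA library 3 lay nearest to the obese libraries. The adjusted p was 0.58 by limma for each. In the control libraries their values ran from 21.2 to 41.8 and from 36.0 to 64.2.

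Further calls appeared only where ObBPA library 3 was left out. Without it 7 features were called by limma, the most with any single library left out. Among them were 4 that were not features of 1 to 5 steps, and no other single library left out gave such a call. In each of the 4 the difference was larger without ObBPA library 3 than with it. Their calls thus follow in part from which library was left out and are given as a description. ENSOARG00000001688 (adjusted p 0.00652 by limma) was higher in ObBPA. ENSOARG00000012112 (0.0181), ENSOARG00000021045 (0.0157) and ENSOARG00000009070 (0.00652) were lower. ENSOARG00000009070 was a feature of low values, at 1.69 ± 0.264 FPKM (obese) and 0.448 ± 0.896 FPKM (ObBPA; SD, n = 4). Its ObBPA mean came from ObBPA library 3 alone, so its call set low obese values against listed zeros. Features not found to be of 1 to 5 steps had groups that did not overlap in 245 cases. In 85 of these (34.7%) ObBPA library 3 was the ObBPA library nearest to the obese mean. The other ObBPA libraries were in 47 to 63. The obese group was similar: obese library 2 was nearest to the ObBPA mean in 78 (31.8%) and the other obese libraries in 44 to 65.

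Across all features tested, 443 (3.48%) had an unadjusted p under 0.05 by limma, 267 higher and 176 lower in ObBPA. Without the libraries numbered 0 there were 605 (4.75%), 337 higher and 268 lower. The balance of directions turned without obese library 0, with 234 higher and 288 lower, and with quantile normalization it was 259 higher and 246 lower. The shares of 3.48% and 4.75% did not exceed the 0.05 that the threshold alone passes where groups do not differ. The groups did not overlap in 256 features (2.01%), 149 higher and 107 lower, with median log2 differences of 0.28 and -0.27. This balance too rested on single libraries: 245 of 637 were higher without obese library 0, 495 of 693 without ObBPA library 0, and 381 of 766 without ObBPA library 3. With median-of-ratios scaling 149 were higher and 132 lower. In libraries 1 to 3 alone they did not overlap in 1170 (9.19%), where 3 libraries a group stay apart more easily than 4. The share of 2.01% was below 0.0286, the rate of full separation where labels are given to 4 against 4 libraries at random. The 256 and the 443 features are therefore not read as features that respond to BPA. By level, the share that did not overlap was 1.94% of features with a mean FPKM under 2 and 2.13% from 2 to under 10. It was 1.97% from 10 to under 100 and 1.72% at 100 or more. Between 10 and 100 FPKM, 72 were higher and 26 lower. From the lowest level to the highest, the other counts of higher and lower were 11 and 18, 58 and 53, and 8 and 10. Of the 256, 17 (0.134% of those tested) also had a log2 difference of at least 1, and 11 of those 17 were features of 1 to 5 steps. Of the 17, 7 were higher and 10 lower in ObBPA. The largest negative difference was -6.34 on the log2(FPKM + 1) scale, in ENSOARG00000024688, a feature of 1 to 5 steps. Its means were 349 ± 292 FPKM (obese) and 37.4 ± 74.9 FPKM (ObBPA; SD, n = 4). The largest positive difference was 5.26, in ENSOARG00000022760, with an adjusted p of 1.00 by limma. Both were named after their values were seen. For ENSOARG00000022760 the values in each library follow. Obese libraries 0 to 3 were listed at 0, 0, 72.6 and 0 FPKM and ObBPA libraries 0 to 3 at 110.7, 83.8, 97.8 and 168.5 FPKM, which were 0, 1 and 0 against 1, 1 and 2 steps in libraries 1 to 3.

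The same features were looked at for prenatal BPA under the control diet, which shares no animal with the comparison in overfed sheep. The BPA and control libraries did not overlap in 152 of the 12734 features (1.19%). In both diets at once the groups did not overlap in 5 features. These were 1.95% of the 256 in overfed animals, beside 1.19% of all features tested under the control diet. They were 3.29% of the 152 in control-fed animals, beside 2.01% of all features tested in overfed animals. Whether 5 is more than coincidence was not tested. ENSOARG00000003866 and ENSOARG00000012717 were higher with BPA in both, ENSOARG00000007776 and ENSOARG00000014190 were lower in both, and ENSOARG00000021137 was lower in overfed and higher in control-fed animals. For ENSOARG00000003866 the means were 5.28 ± 0.260 FPKM (obese) and 6.37 ± 0.144 FPKM (ObBPA), beside 5.23 ± 0.872 (control) and 6.38 ± 0.221 (BPA; SD, n = 4). For ENSOARG00000014190 they were 2.56 ± 0.0970 (obese) and 1.61 ± 0.587 (ObBPA), beside 2.34 ± 0.444 (control) and 0.852 ± 0.313 (BPA; SD, n = 4). For ENSOARG00000021137, which went opposite ways, they were 5.62 ± 0.533 (obese) and 4.52 ± 0.583 (ObBPA), beside 4.91 ± 0.165 (control) and 5.68 ± 0.528 (BPA; SD, n = 4). Over the 12734 features limma called 0 interactions, with 329 at an unadjusted p under 0.05.

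The median SD of log2(FPKM + 1) over features was 0.167 in obese and 0.161 in ObBPA hearts, and 0.109 and 0.123 among libraries 1 to 3. The median SE of a difference was 0.119, and in 94.12% of features the difference had a 95% interval that stayed within 1 on the log2 scale in either direction. For those features a larger change of FPKM + 1 is outside the interval, while at low FPKM this does not bound the change in FPKM.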

How the data were processed

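Poly-A RNA of myocardium was sequenced, per the labels' protocols. The deposited FPKM table was made by the authors with TopHat2 2.0.9 and Bowtie2 2.1.0 (alignment tools), Cuffdiff 2.1.1, Cufflinks and FastQC on build Oar_v3.1, per the submitters' processing notes; their settings, filters and further scaling are not given in the sources used here. Each column matched 1 sample title.

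A count model was not used, since FPKM are no counts. Values were transformed to log2(FPKM + 1), filtered at an FPKM of at least 1 in 4 of 8 libraries, and fitted by group with limma 3.58.1 (R 4.3.3, trended prior variance, 6 residual and 2.32 prior degrees of freedom, two-sided, Benjamini-Hochberg over all features tested). Named features were the 2 with the smallest p in each direction; others were chosen after their values were seen. Relative depth came from FPKM under 0.5, in bins of 0.01 on the log2 scale. Features of 1 to 5 steps had at least 3 values above 0, each within 0.02 steps of a whole number. The procedures were tested on simulated data. The comparison, named rule and 26 gene lists were chosen with earlier results of these data known. Other tools were Python 3.11.15, pandas 2.3.3, numpy 2.4.6, scipy 1.17.1 and matplotlib 3.10.9.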

Additional observations from a re-analysis of the deposited data

Results flagged for a closer look

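A library far from the other 3 of its group was found in 2 of 24 groups of values examined. Chance meets this rule in about 1 of 20 groups of values not chosen for their pattern. Both features found were named after their values were seen, and groups listed at 0 throughout cannot meet the rule. The count therefore cannot be set against that rate. ENSOARG00000023506 was listed at 0 in obese library 0, against FPKM values of 188.9, 200.2 and 205.7 in the other obese libraries. ENSOARG00000022760 had 72.6 in obese library 2, or 1 step, and was listed at 0 in the other obese libraries.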

How the results depend on the processing

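The count of 2 called features was 1 without the filter or with a term for the libraries numbered 0. It was 0 by limma with an FPKM of at least 1 in all 8 libraries (412 of 11554 features at an unadjusted p under 0.05) and with a mean FPKM of at least 10 (191 of 6160). It was also 0 with all 16 libraries fitted (233 of 12734) and, chosen after seeing the data, without features of 1 to 5 steps (444 of 12468). All of these but the fit of 16 libraries remove both called features by construction. With the replicate number as a block it was 0, with 791 at an unadjusted p under 0.05. Deviations of same-numbered libraries correlated at 0.17, -0.00034, 0.12 and -0.017, so not every pair was over 0.1 and the numbers were not taken to pair the samples; the libraries numbered 0 also share the difference from the others given above. Of the obese libraries, 1 of 4 obese libraries, that numbered 0, correlated best with its own number. Leaving out 1 library gave 1 to 7 calls: 1 without obese library 0 or ObBPA library 0 or 1, 3 without obese library 3 or ObBPA library 2, 5 without obese library 1 or 2, and 7 without ObBPA library 3. The other settings gave 2 or 3. The 443 features at an unadjusted p under 0.05 became 781 of 20225 without the filter. Of 12734 they became 739 with library weights and 795 with a term for the libraries numbered 0. The groups did not overlap in 1170 features without the libraries numbered 0 and in 116 of 6160 at a mean FPKM of at least 10. With 1 library left out they did not overlap in 422 to 766, and fewer libraries make overlap less likely. The difference in the share of the 10 most abundant features was -0.303 percentage points, 0.0929 without the libraries numbered 0 and -2.42 to 1.08 with 1 library left out. The difference in the share of the most abundant feature was -2.75, and ran from -4.87 without obese library 1 to -0.191 without obese library 2. With 1 left out, the difference in features at an FPKM of at least 1 ran from -12.8 to 90.9, and in summed FPKM, in units of 1000, from -144 to 263. ENSOARG00000025092 and ENSOARG00000022632 could not be fitted where the filter removed them. The unknown depth limits what can be said of features of few fragments.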
